A study of Homo sapiens with 4 samples.

Results

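The genes described here gave at least 2-fold less signal in miRNA-transfected than in control-transfected cells on each of 4 microarrays. The arrays covered 2 head and neck squamous cell carcinoma lines, FaDu, derived from the hypopharynx, and HSC3, derived from the tongue. Each line was transfected with miR-489 or with miR-504, and RNA was taken 72 h later. On every array the miRNA transfectant carried Cy5, and control miRNA-transfected cells of that line carried Cy3, so that each combination of line and miRNA was measured on 1 array and the dyes were never swapped. A gene was kept when its brightest probe was well above background in both dyes on all 4 arrays and when its log2 ratio of Cy5 over Cy3 was at or below -1 on all of them. The ratios of each array were set to a median of 0 over the spots well above background in both dyes. Of 15602 genes measured in this way, 239 (1.53%) met the rule. PTPN11 and CTDSPL2 were among them and were left out by the rule, which left 237 genes. With the median set to 0 over all probes in place of these spots, the rule gave 44. Because the genes were chosen by these ratios, their sizes are given as a description and were not tested. The control transfectants of a line may be 1 RNA sample used on both arrays of that line, since the labels do not separate them, and the 4 ratios of a gene are then not independent.

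A miRNA is a short RNA that is held by an Argonaute protein and pairs with messenger RNAs, mostly in the 3′ untranslated region, through the seed at its 5′ end. Pairing lowers the translation and often the amount of the message. Each miRNA can act on many messages, and miRNAs with different seeds pair with different sites. miR-489 and miR-504 are separate miRNAs, and the mature forms listed under their genes are shown because the genes described here were lower with either of them. The sequences are from RefSeq (GRCh38.p14), written 5′ to 3′, with the seed (bases 2 to 8) in capitals.
hsa-miR-489-3p: gUGACAUCacauauacggcagc
hsa-miR-504-5p: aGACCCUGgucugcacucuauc
hsa-miR-504-3p: gGGAGUGCagggcaggguuuc
They lie at chr7:93483947-93483968, chrX:138667760-138667781 and chrX:138667724-138667744, all on the minus strand. The labels name no arm, so both arms of miR-504 are given. The seed of hsa-miR-489-3p has the same base as that of hsa-miR-504-5p at 2 of 7 positions and as that of hsa-miR-504-3p at 3 of 7. No messenger RNA or probe sequences were used, and no target site was searched for.

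All arrays carried 43376 non-control spots of 41000 probes. Between 58.2% and 59.2% of spots were well above background in Cy3 and between 61.2% and 62.6% in Cy5. Of the squamous epithelial markers, KRT5, KRT14, KRT17, DSG3, PKP1, CDH1 and SFN were well above background in the control channel on all 4 arrays. PTPRC, CD3E, PECAM1, DES and ALB, markers of blood, endothelial, muscle and liver cells, were well above background on none. GFAP, a glial marker, was above it on all 4 with signals of 39.0 to 71.0, and COL1A1 on 1. In such bulk samples, fewer cells of a kind and less RNA per cell cannot be told apart.

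The 237 genes were mostly lower by a similar amount on every array. Their mean log2 ratio over the 4 arrays had a median of -1.37, with an interquartile range of -1.47 to -1.23, and the medians on single arrays were -1.35 and -1.39 in FaDu with miR-489 and with miR-504, and -1.33 and -1.31 in HSC3 with miR-489 and with miR-504. On the same arrays 6.12%, 4.15%, 5.52% and 3.55% of all genes measured were at or below -1. The gap between the highest and the lowest of a gene's 4 ratios had a median of 0.21, against 0.36 over all genes measured. This gap was smaller for brighter genes, and the 237 were brighter than most: in the brightest of 4 equal classes of all genes by control signal its median was 0.18 for the 237 and 0.24 for all, and among the brightest 1% of genes 0.19 and 0.17. For 153 of the 237 genes (64.6%) this gap was at most 0.25, which held for 30.3% of all genes measured. Only 4 of the 237 had a gap over 1 (1.69%, against 5.90% of all genes measured). FaDu with miR-504 was the lowest array for 141 of the 237 (59.5%), compared with 28.7% of all genes. No gene was at or below -2 on all arrays (0 of 237) and 14 were at or below -1.5 on all of them. The 237 genes had 1 spot per probe on each array, so their ratios have no error from repeated spots; over the 264 probes spotted at least 5 times, the SD between spots had a median of 0.0556 to 0.0636 on the log2 scale.

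**Figure D1:**
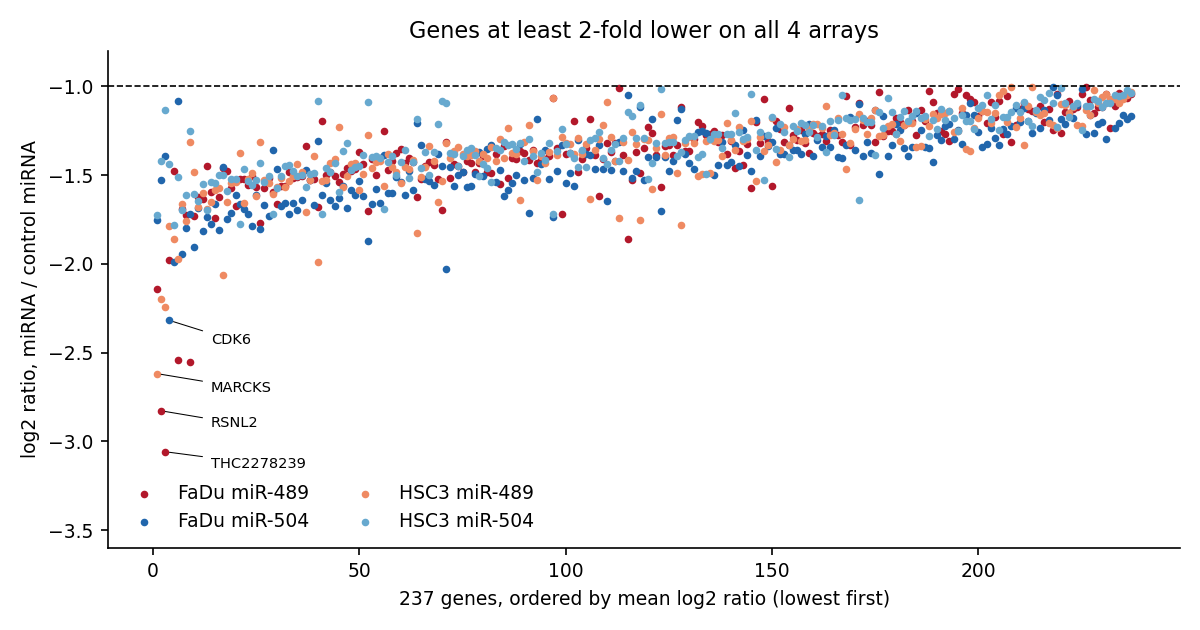
Log2 ratio (miRNA over control miRNA) on the 4 arrays for the 237 genes, ordered along the horizontal axis by their mean ratio, 1 point per gene and array; the dashed line is the limit of -1. Most genes lie in a narrow band near the median mean of -1.37, and 4 genes with the lowest means, which vary more between arrays, are named.

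The lowest mean belonged to MARCKS, a membrane-bound actin-binding substrate of protein kinase C. Values of a gene are given first for FaDu, with miR-489 and then miR-504, and next for HSC3 with the miRNAs in that order. The log2 ratios of MARCKS were -2.14, -1.75, -2.62 and -1.72 (mean -2.06, 24.0% of control). Both lines gave the lower value with miR-489. RSNL2, the array's name for CLIP4, which belongs to the family of microtubule-binding CAP-Gly proteins, followed with -2.83, -1.53, -2.20 and -1.42 (mean -1.99). Here too the arrays with miR-489 were the lower ones in each line. CDK6, a kinase that with D-type cyclins drives cells from G1 into S phase, had -1.98, -2.32, -1.79 and -1.44 (mean -1.88). Its lowest value was with miR-504 in FaDu, and the FaDu and HSC3 values did not overlap. A transcript known only as a THC consensus sequence, THC2278239, had -3.06, -1.39, -2.24 and -1.13 (mean -1.96). It varied more between arrays than any other of the 237 genes, and again was lower with miR-489. Its Cy5 signals with miR-489 were dim, 43.0 in FaDu and 51.0 in HSC3. With normexp background correction and loess its mean was -1.23.

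Several other genes among the 25 lowest means had symbols. TRIM35, a RING-type ubiquitin ligase of the tripartite motif family, had -1.73, -1.90, -1.48 and -1.61, a gap of 0.42 between arrays. OTUD7A, a deubiquitinating enzyme, had -1.63, -1.69, -1.68 and -1.64. SYN1, a synaptic vesicle phosphoprotein of neurons, had -1.59, -1.77, -1.65 and -1.54. OTUD7A varied least of the 3, with a gap of 0.06. COX6A2, the heart and muscle form of a cytochrome c oxidase subunit, had -1.56, -1.72, -1.52 and -1.54. CYP4F2, a cytochrome P450 of fatty acid and vitamin K metabolism, had -1.67, -1.61, -1.54 and -1.52. ZNF575, a zinc finger gene, had -1.62, -1.81, -1.58 and -1.50. The remaining genes with low means were NEUROG1 and NPBWR1, described with their groups, LOC145694 and 12 transcripts without a gene symbol.

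Roles were assigned to the genes after their values were seen, so the groups below order the genes and show no preference for a role. Regulators of development formed the largest group, with 17 members whose means ran from -1.63 to -1.14. NEUROG1, a proneural factor, had -1.74, -1.66, -1.58 and -1.54. SOX1, a factor of neural progenitors, had -1.41, -1.66, -1.46 and -1.40, and SOX17, a factor of endoderm and vessels, had -1.51, -1.66, -1.51 and -1.48. These 3 factors differed between arrays by at most 0.27. The others were SOX8, SOX18, NEUROG3, POU3F3, FOXB1, FOXQ1, LBX1, PHOX2A, HES7, BHLHB4, NPAS3, SP5, ZFPM1 and EHF, an epithelial ETS factor. In 14 of the 17 the gap between arrays was at most 0.25, which held for 64.6% of the 237 and 30.3% of all genes measured. Of 11 measured genes named SOX, a family picked after the values were seen, 4 were among the 237 (36.4%, against 1.53% of all genes measured). SOX3, which missed the limit, had -0.97, -1.01, -0.81 and -0.80, while SOX4 had -0.06, 0.22, -0.14 and 0.41.

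Receptors and channels, several of them known from nerve cells, came next. Among 6 G protein-coupled receptors, NPBWR1, a neuropeptide B and W receptor, had -1.52, -1.69, -1.66 and -1.46, and KISS1R, the kisspeptin receptor, had -1.36, -1.52, -1.36 and -1.39. UTS2R (urotensin), GALR3 (galanin) and the orphan receptors or receptor-like proteins GPR153 and GPR137 completed the set, with means from -1.58 to -1.21 over all 6. The 5 channel subunits had means from -1.54 to -1.19. GRIN1, the obligatory subunit of NMDA glutamate receptors, had -1.51, -1.70, -1.44 and -1.51, and GRIN2D, another NMDA receptor subunit, had -1.25, -1.34, -1.27 and -1.19. The others were the pacemaker channel HCN4 and the calcium channels CACNA1B and CACNA1I. On the probes that chose them, all channel subunits were lower by similar amounts in both lines. Of the 2 with a second, dimmer probe, GRIN1 had -0.76, -0.75, -0.62 and -0.69 on it. CACNA1B had 0.13, 0.11, -0.55 and -0.62 and so was not lower in FaDu by that probe, whose control intensities were only 45.5 to 53.5. Secreted proteins numbered 10, with means from -1.53 to -1.17. The hormone AVP (vasopressin) had -1.35, -1.54, -1.55 and -1.43, and the others were UCN2, NMB, WNT6, BMP8A, IGFBP4, HRG, TNXB, MUC2 and PCSK1N.

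Genes of growth, death and chromatin were also present. BAX and BBC3, both of which promote mitochondrial cell death, lay close to the limit. BAX had -1.04, -1.17, -1.03 and -1.04, and BBC3 had -1.11, -1.24, -1.16 and -1.06. Other probes of both genes were not as low. The second probe of BAX, as given further on, was above 0 on all 4 arrays and the dimmest of its 3 probes had a mean of -0.06, while the second probe of BBC3 had a mean of 0.90 and the dimmest of its 3 of -0.21. Protein kinases placed with CDK6 were PRKACA, PKN2 and SNF1LK (SIK1), and KIAA1524 (CIP2A) is an inhibitor of protein phosphatase 2A. Their means, with that of CDK6, ran from -1.88 to -1.18. The 6 chromatin proteins had means from -1.47 to -1.20: the histone methyltransferase MLL3 (KMT2C), L3MBTL3, BRWD1, the linker histone HIST1H1B, the cohesin acetyltransferase ESCO1 and PSIP1. RNA processing was represented by LSM8, RAVER1, FLJ12529 (CPSF7) and RNU12, the U12 small nuclear RNA of the minor spliceosome, with means from -1.50 to -1.12. No role is given here for 173 of the 237.

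Gene symbols made up a smaller share of the 237 than of all genes measured. A symbol was carried by 119 (50.2%, against 69.3% of all), 24 were THC consensus sequences assembled from expressed sequence tags (10.1% against 4.46%), 36 had a cDNA or tag accession as their name (15.2% against 9.39%) and 36 only a probe name (15.2% against 9.11%). By kind of name, 3.45% of the THC sequences and 1.10% of the genes with a symbol were among the 237. The share of a given family was near the 1.53% background for zinc finger genes named ZNF (4 of 298, 1.34%) and for TMEM genes (2 of 124, 1.61%). No solute carrier (0 of 154), ribosomal protein (0 of 92), RAB (0 of 56) or keratin gene (0 of 21) was among them. The lists of pathways gave 1 member in all: RSNL2, out of 13 measured microtubule-binding and spindle genes. None came from 16 RAS-MAPK output genes (median mean ratio 0.36), 20 interferon-stimulated genes (-0.06), 28 cell cycle genes (0.25), 18 protein tyrosine phosphatases (0.06), 11 genes of the microRNA pathway (-0.01) or 20 of adhesion and cytoskeleton (0.40). The lists did not hold CDK6 or MARCKS, which are among the 237, so these counts cover the listed genes and not every gene of such a role.

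The spots of these genes were bright in the control channel. The log2 Cy3 signal, which depends on the probe as well as on the RNA and is not a measure of expression between genes, had a median of 11.2 for the 237 and 8.81 for all genes measured. When all genes were split by this signal into 4 classes of equal size, 130 of the 237 (54.9%) lay in the brightest class, where they made up 3.33% of the genes, against 0.820% to 1.08% in each of the other 3. Among the brightest 1% of genes they were 26 of 157 (16.6%). CRTC1, a CREB coactivator, had the highest signal of the 237, with Cy3 intensities of 125752, 135505, 145338 and 157414. Its ratios were -1.04, -1.20, -1.10 and -1.05, almost the same in every condition. PKN2, a protein kinase, had intensities of 101664, 96450, 117774 and 123214 with ratios of -1.17, -1.29, -1.15 and -1.10. SOX1 gave 10938, 9641, 9798 and 11827, again at a similar level in both lines. Other probes of SOX1 (log2 Cy3 5.33) and CRTC1 (3.90 and 4.37) were not well above background in both dyes throughout. The second probe of PKN2 was, at 10.9. At the dim end, 32 of the 237 lay in the lowest class. With the deposited ratios, which use the scanner software's own background and dye normalisation, 19 of these 32 stayed at or below -1 on all arrays, and in the 2 brighter classes all did (33 of 33 and 130 of 130). The software's background exceeded the local one by 15.5 to 18.7 units in Cy3 and by 5.14 to 5.78 in Cy5; the parts of background and dye normalisation in these counts were not tested.

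**Figure D2:**
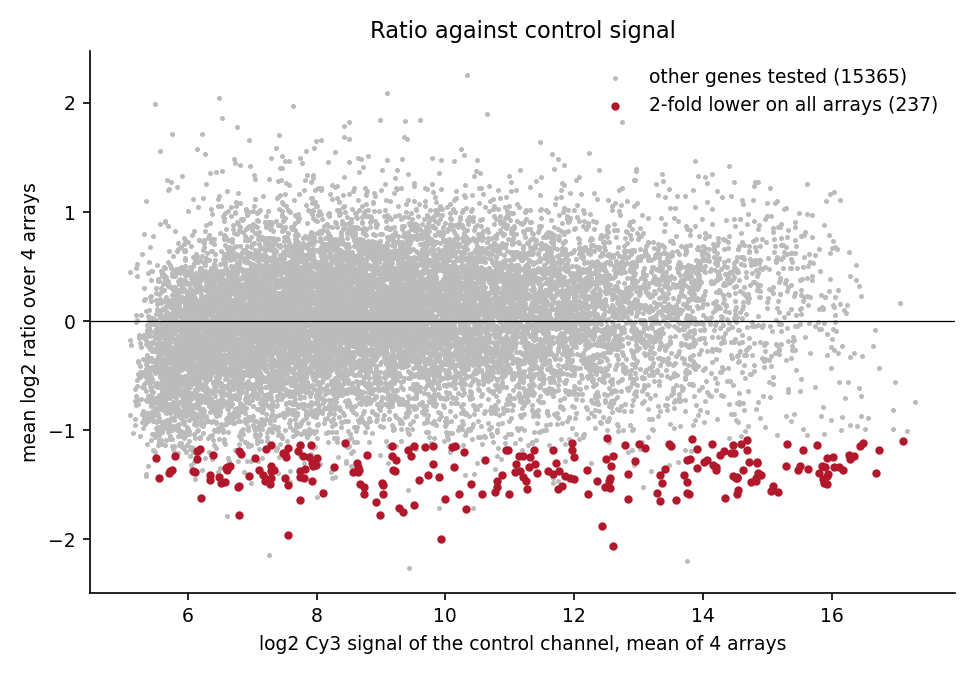
Mean log2 ratio over the 4 arrays against the mean log2 Cy3 signal of the control channel, 1 point per gene, for the 237 genes (red) and all other genes measured (grey). The 237 extend over the whole signal range, with 130 of them in the brightest of 4 classes of equal size.

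Control signals of the 237 mostly resembled each other between the lines. After centring on all genes measured, the size of the log2 Cy3 difference between FaDu and HSC3 had a median of 0.29, against 0.48 for all genes, and it was at most 0.25 in 46.0% of the 237, against 28.5%. In the brightest class the medians were 0.23 and 0.42. A few genes were exceptions. MOBKL2B (MOB3B), a MOB family kinase activator, had control intensities of 75.0, 87.0, 2085 and 1845, a difference of -4.47 on the log2 scale. Its ratios were -1.35, -1.38, -1.33 and -1.46. EHF had 63.5, 56.0, 588 and 543 (difference -3.11) and ratios of -1.09, -1.10, -1.16 and -1.64. In the other direction, ZNF573 had 403, 455, 116 and 120 (difference 1.998) with ratios of -1.51, -1.45, -1.40 and -1.38. NMB, which encodes the peptide neuromedin B, had 3301, 3589, 1438 and 940 (difference 1.70) with ratios of -1.27, -1.24, -1.03 and -1.17. The rule itself required ratios at or below -1 in both lines, so these values only describe the genes.

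**Figure D3:**
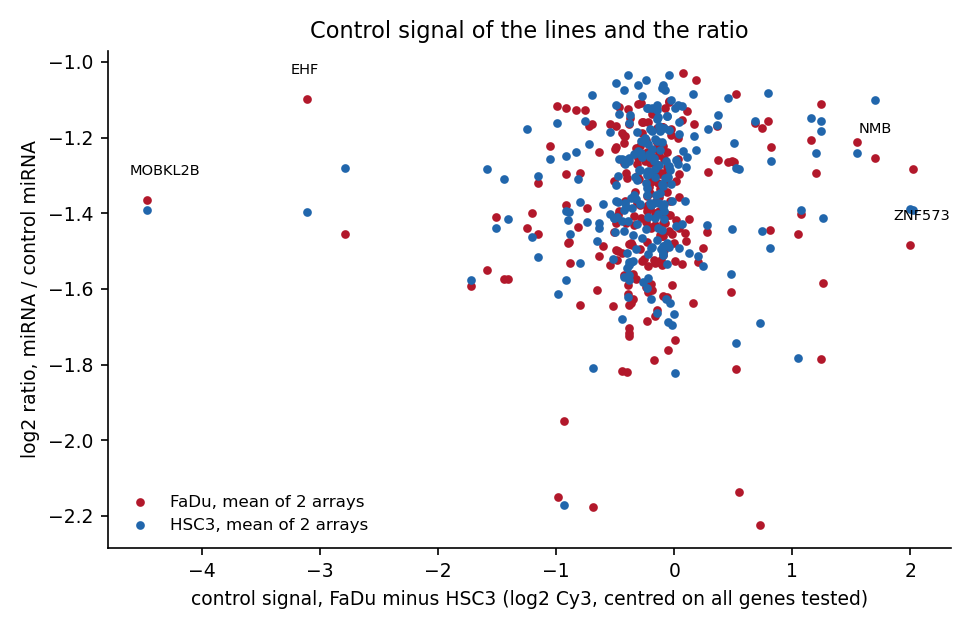
Log2 ratio in FaDu (red) and HSC3 (blue), each the mean of 2 arrays, against the difference in control signal between the lines (log2 Cy3, FaDu minus HSC3, centred on all genes measured) for the 237 genes. Most lie within 0.5 of 0 on the horizontal axis, and MOBKL2B at -4.47 and EHF at -3.11 are the farthest from it.

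A second probe of the same gene gave a measurement that the rule had not used. For 48 of the 237 genes another probe was well above background in both dyes on all arrays, and the brightest of these was taken. In all, 3928 genes had such a probe. Second probes of the 48 had a median mean log2 ratio of -0.09 (interquartile range -0.52 to 0.39), against -1.33 for the probes that chose them and 0.04 for the second probes of all 3928 genes. They were at or below -1 on all arrays for 2 of the 48 (4.17%), against 18 of the 3928 (0.458%), and below 0 on all arrays for 15 (31.3% against 27.8%). They were above 0 on all 4 for 18 (37.5% against 35.6%). A mean at or below -1 was found for 4 of the 48 (8.33%), against 1.88% of the 3928. Thus for 46 of the 48 the other probe was not 2-fold lower throughout.

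Genes for which both probes were low were few. CYP4F2 had second-probe ratios of -1.80, -1.56, -1.92 and -1.66, as low as its brightest probe. THC2358845 had -1.64, -1.26, -1.36 and -1.44. L3MBTL3, a malignant brain tumour domain protein of chromatin, had -1.57, -1.94, -0.70 and -1.92, past the limit on every array but HSC3 with miR-489. CDK6 had -0.96, -1.38, -1.14 and -0.77, with a mean of -1.07. All its values were thus below 0 but higher than those of the brightest probe. BRWD1 had a second-probe mean of -0.94 and TNXB of -0.84, while a further, dimmer probe well above background had a mean of -0.11 in BRWD1 and of -0.23 in TNXB. GRIN1 and LSM8 had second-probe means of -0.70 each.

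For other genes the probes pointed in opposite directions. RSNL2 had second-probe ratios of 0.47, -0.09, 0.44 and 0.18, although its brightest probe had the second lowest mean of the 237. The array design gave these probes of RSNL2 different accessions, so they may not read the same transcript. TRIM35 had 0.54, 0.20, 0.65 and 0.44, and DEAF1, a transcription factor, had 0.71, 0.61, 0.54 and 0.56. None of these came near the limit. The highest second probe was that of TMEM158, a membrane protein, with 2.14, 0.45, 1.58 and 0.76, while its brightest probe had -1.17, -1.26, -1.18 and -1.13. That second probe was dim, with control intensities of 40.5, 59.5, 82.0 and 200.5, against 21543 to 29195 for the brightest. SPECC1, BBC3, NRSN2, CDH24, LOC255783, AASDH and MLL3 also had second-probe means above 0, from 0.44 to 0.999. Control intensities on the second probe were 53.5 to 125 for SPECC1 and 65.0 to 94.5 for CDH24. No second probe that passed the filter was there for 189 of the 237 genes, MARCKS, SYN1, NEUROG1 and SOX1 among them.

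Second probes were dimmer, with a median log2 Cy3 of 7.37 against 12.5 for the brightest probes of these 48 genes. For 9 genes the signals of both probes lay within 1 log2 unit, and in these the second probe was at or below -1 on all arrays for 1 gene, THC2358845, and had a mean above 0 for 5 (55.6%). Over all 1455 genes with such a pair of probes, 11 were at or below -1 throughout (0.756%) and 56.2% had a mean above 0, a share near that of the 9. BAX was one of them, with second-probe ratios of 0.36, 0.38, 0.14 and 0.57 at a log2 Cy3 signal of 12.2, against 12.5 for the brightest. LARS, the cytosolic leucyl-tRNA synthetase, had 0.45, 0.42, 0.45 and 0.38, while its brightest probe had -1.37, -1.32, -1.64 and -1.32. Of the 11 genes whose second probe was at least as bright as the median gene, none (0 of 11) was at or below -1 on all arrays and 7 had a mean above 0 (63.6%). Of all 1268 genes with a second probe that bright, 0.394% and 65.5% did, so neither count sets the 11 apart. The array design gave both probes the same accession for 37 of the 48 genes, where the median second-probe mean was -0.07. For 11 genes, RSNL2 and BAX among them, the accessions differed, and this median was -0.11. The position of the probes in their transcripts was not used here.

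**Figure D4:**
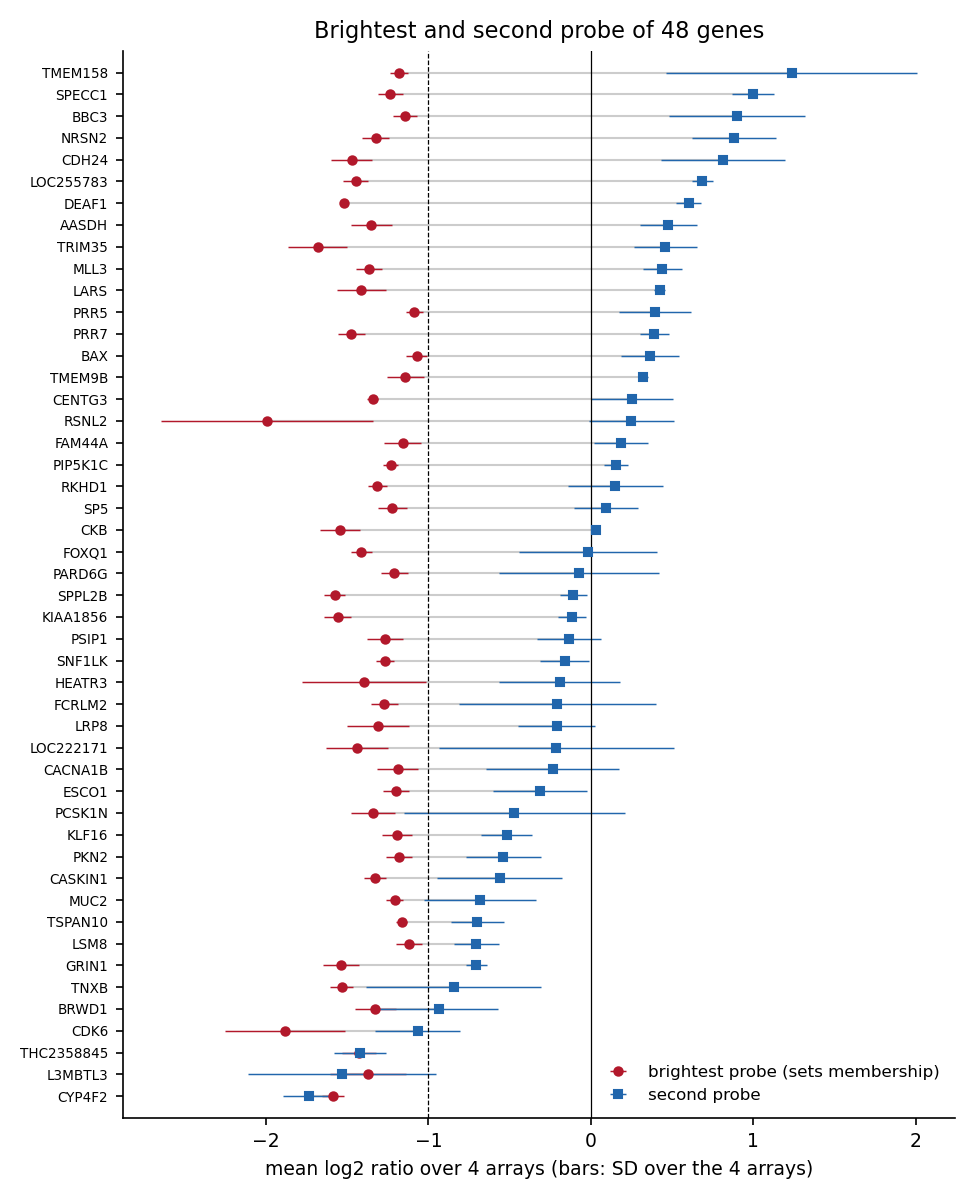
Mean log2 ratio over the 4 arrays of the brightest probe (red circles, which chose the genes) and of the second probe (blue squares) for the 48 genes with both, ordered by the second probe. Bars are the SD over the 4 arrays, the dashed line is -1, and the second probes spread from -1.73 (CYP4F2) to 1.24 (TMEM158).

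Whether the miRNAs differed from each other was tested with limma, with the lines as 2 replicates of each miRNA, over 20912 probes whose control signal was well above background. Of all probes 223 (1.07%) differed at a Benjamini-Hochberg adjusted p of at most 0.05, and of the 237 genes 0 did. At an unadjusted p under 0.05 the 237 held 9 (3.80%), against 18.5% of all probes. Being at or below -1 on every array limits how far the miRNAs can differ in a gene, so the counts describe these genes only. With the cell line as a block, which pairs the arrays of a line, 2.67% of all probes and 2 of the 237 genes were called. They were THC2278239 (miR-489 minus miR-504 -1.39 ± 0.17, SE, limma adjusted p 0.0274 with the block and 0.106 without) and RSNL2 (-1.04 ± 0.17, adjusted p 0.0442 with the block and 0.112 without). Both were lower with miR-489 in each line. The second probe of RSNL2, under another accession, went the other way. It was higher with miR-489 in each line (0.47 against -0.09 in FaDu and 0.44 against 0.18 in HSC3). For THC2278239 the difference was -0.73 with normexp and loess (limma adjusted p 0.113). On the ratios used throughout, THC2303043 (-0.96), MARCKS (-0.64) and MIDN (-0.64) came next among genes lower with miR-489. Their limma adjusted p without the block was 0.146, 0.175 and 0.142. With normexp and loess the differences were -0.81 for THC2303043 and -0.65 for MARCKS but only -0.14 for MIDN.

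In the opposite direction, HEATR3, a HEAT-repeat protein, had -1.06, -1.74, -1.06 and -1.72. It was lower with miR-504 in both lines by almost the same amount, 0.68 in FaDu and 0.65 in HSC3 on the log2 scale. Its limma adjusted p was 0.0665 without and 0.0635 with the block, and 0.0488 on the deposited ratios. Its second probe, at 0.29, -0.46, -0.08 and -0.52, was also lower with miR-504 in each line, though above the limit everywhere. L3MBTL3 had the next largest difference of this sign, 0.34. CDK6 had a mean of -1.88 with either miRNA, with miR-504 lower in FaDu and miR-489 lower in HSC3. Among the 237 genes 41 (17.3%) were lower with miR-489 in both lines, 67 (28.3%) were lower with miR-504 in both, and in 129 the lines went opposite ways. Over all genes measured these shares were 29.7% for miR-489 and 35.4% for miR-504, with the larger share likewise for miR-504. The lines went opposite ways in 5452 of all 15602 genes, a smaller share than in the 237. The size of the difference had a median of 0.06, against 0.16 over all genes measured.

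**Figure D5:**
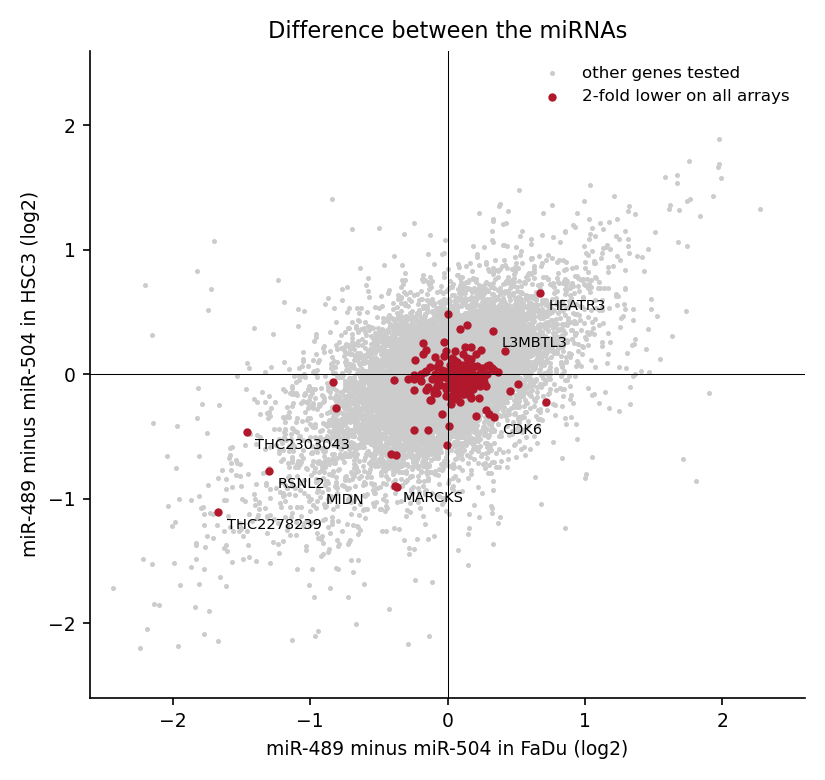
Difference between the log2 ratios with miR-489 and with miR-504 in FaDu (horizontal) and in HSC3 (vertical), 1 point per gene, for the 237 genes (red) and the other genes measured (grey; 4 genes with a value beyond 2.6 are outside the axes). The 237 cluster near 0, with THC2278239, RSNL2 and THC2303043 toward the lower left and HEATR3 toward the upper right.

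Between the lines, with no test, the difference in ratio had a median size of 0.10 for the 237 and 0.11 for all genes measured. HRG, a plasma glycoprotein, had -1.70, -1.87, -1.27 and -1.09, and was lower in FaDu by 0.60. CDK6 and THC2278239 were lower in FaDu by 0.54 each, and the probe A_24_P67748 by 0.85, with -2.55, -1.72, -1.31 and -1.25. Lower in HSC3 were ERN2, an endoplasmic reticulum stress sensor of mucosal epithelium, by 0.42, and EHF by 0.30. Both HRG and ERN2 were dim, with control intensities of 51.5 to 142 and of 43.0 to 63.5, and on the deposited ratios neither was at or below -1 on all arrays, their highest values being -0.57 and -0.60.

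The limit itself divided genes with nearly equal values. Just inside it were THC2269657, TMEM9B, A_32_P15887, IGFBP4 and ERN2, whose highest ratios on any array were from -1.0075 to -1.0025. Just outside were PARP10, ENST00000327299, HIPK2, AI752947 and A_24_P689119, whose highest ratios were from -0.9999 to -0.9872. HIPK2, a kinase of the DNA damage response, had -0.99, -1.13, -1.01 and -1.07. The gap between both sides was smaller than the SD between repeated spots.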

How the data were processed

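Members and gene lists were chosen with earlier results of these data known. The authors deposited scanner output of Agilent Feature Extraction 9.5.3.1, with median and mean intensity values per spot and local background, marks (other) for outliers and for signal well above background, and a log10 ratio per spot. A deposited value table holds the same log10 ratios (largest difference 0). The paper's methods describe log2 ratios of background-subtracted median intensity and a global normalisation, and do not name the spots used for it. Centring on spots well above background was a choice made here. Centring on all probes, which the paper's wording also allows, gave 44 genes. Ratios were centred on the median of spots well above background in both dyes (0.58, 0.65, 0.58 and 0.45 removed), outlier spots (118 to 137 per array) were left out, repeated spots were averaged, and a gene took its probe with the highest mean log2 Cy3. With 1 array per condition, precision is limited by the number of arrays, and the p-values of limma treat the 2 lines as replicates, which measures only the spread between them. The limma fit had 2 residual and 3.20 prior degrees of freedom, and it and the selection rule were tested on simulated data.

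Named genes were the 25 lowest means, the 10 lowest and 10 highest second probes, 5 on each side of the limit, the 5 largest differences each way between miRNAs and between lines, and members of the fixed lists; others were picked after their values were seen, as were the roles and the SOX family. Gene names are those of the array; current names came from RefSeq (GRCh38.p14), which matched 115 of the 237 genes. As under 80% matched, a check of chromosome or promoter composition was void. The alternatives were normexp (offset 50), no background subtraction, mean spot intensity, loess (span 0.3), normexp with loess, total signal, centring on all probes, the deposited ratios and table, other filters, other choices of probe, 1.5-fold and 4-fold limits, a block for the cell line, quantile-normalised Cy3 and leaving out each array. Computations ran in Python 3.11.15 (matplotlib 3.10.9, numpy 2.4.6, pandas 2.3.3) and in R 4.3.3 with the packages limma 3.58.1 and data.table (version 1.17.8).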

Additional observations from a re-analysis of the deposited data

Results flagged for a closer look

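Among the 48 genes with a second probe, those of 3 genes had opposite signs in all arrays of one group and all arrays of the other. These differences were not tested, and the same count over all second probes is not given here. The second probe of PCSK1N, a proprotein convertase inhibitor of neuroendocrine cells, had log2 ratios of 0.16 and 0.07 in FaDu and of -1.12 and -1.003 in HSC3 (FaDu minus HSC3 1.17), while its brightest probe was below -1 in both lines. CACNA1B, a neuronal calcium channel subunit, had second-probe ratios of 0.13 and 0.11 in FaDu and of -0.55 and -0.62 in HSC3 (FaDu minus HSC3 0.71). That probe was dim, with control intensities of 45.5 to 53.5. FOXQ1, a forkhead factor, had second-probe ratios of -0.48 and -0.23 with miR-489 and of 0.48 and 0.16 with miR-504 (miR-489 minus miR-504 -0.67). Its probe was dim in FaDu, with control intensities of 57.0 and 78.5, against 891 and 957.5 in HSC3.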

How the results depend on the processing

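The number of genes depended on the scaling. Besides the 237, the rule gave 148 genes with normexp, 130 without background subtraction, 462 with total signal, 44 with centring on all probes and 2964 with no filter on dim probes. Total signal moved the median of all genes measured by -0.19 and centring on all probes by 0.38, so these counts follow the zero point. The genes lost with normexp had a median log2 Cy3 of 7.55 and those kept 12.9. A threshold of 1.5-fold gave 1016 genes and one of 4-fold 0. Leaving out 1 array gave 269 to 286. In 41 of the 237 the ratio was at or below -1 on all arrays under each of the 10 scalings, MARCKS, RSNL2, CDK6, SYN1, NEUROG1, SOX1 and SOX17 included; TRIM35, OTUD7A and CYP4F2 were also among them. Of the 504 means of the 56 named members under the 9 other scalings, 429 were below -1. All were below 0, as were the means of all 237 genes. The genes were chosen by the same spots, so this is not separate evidence. The deposited ratios and the deposited table hold the same values but count as separate scalings.

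The median of the second probes was -0.09, and it was 0.0342 with loess, -0.27 with total signal, 0.29 with centring on all probes and -0.47 with no filter on dim probes (77 genes). Without 1 array it ranged from -0.0932 to 0.0193, the latter without FaDu miR-489. The number of the 48 at or below -1 on all arrays was 0 to 2 under the other scalings.

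For the difference between the miRNAs, 223 probes were called. With the cell line as a replicate block, which pairs the arrays of a line, 558 were, and 347 were with loess, 783 with normexp and loess and 390 with the deposited ratios. Of the 237 genes, 2 were called with the block, 2 with normexp and loess (RSNL2 and HEATR3) and 1 with the deposited ratios (HEATR3). Leaving out 1 array gave 0 to 0 calls among all probes and 0 to 0 among the 237, with limma at 1 residual degree of freedom and the lone array assumed to vary like the rest; 2063 to 3705 probes then had an unadjusted p under 0.05. The control signal of the 237 lay 2.39 above that of all genes on the log2 scale, also after quantile normalisation. Each condition had 1 array and no dye swap, so a dye effect of a probe remains in its ratio and cannot be told apart from a response to both miRNAs.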
